A study of Mus musculus with 11 samples.

Results

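The genes described here are 10 immediate early genes whose promoters answer to the transcription factor CREB: Fos, Fosb, Jun, Junb, Egr1, Nr4a1, Nr4a2, Nr4a3, Crem and Atf3. They were chosen by name, as genes known to be switched on within minutes by cAMP and by growth factor signalling, with no measured value in the rule. Earlier results of these data were known at the time, so comparisons of the 10 genes with all genes are a description. These genes are 10 of the 55487 listed for each heart, and all 10 were among the 24177 genes tested, those whose counts summed to 10 or more. RNA was sequenced from whole embryonic hearts at E14.5, 5 from Pde2A-/- and 6 from Pde2A+/+ embryos of the line B6; 129P2-Pde2A<tm1Dgen>, 1 library per heart. Both genotypes came from matings of Pde2A+/- mice, shared the mixed background of the line and were untreated. Phosphodiesterase 2A degrades cAMP and cGMP, and the comparison asks how the RNA of the heart differs when it is missing. The allele is lost from every tissue of the embryo and not from the heart alone, and Pde2A-/- embryos of this line are anaemic, so an effect within heart cells and an effect of the embryo's condition cannot be told apart in these hearts.

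When cAMP rises, protein kinase A phosphorylates CREB, which then recruits coactivators at cAMP response elements (CREs) and starts transcription of genes that need no new protein synthesis to be induced. The products are themselves transcription factors: Fos and Jun family proteins pair into the AP-1 factor, Egr1 is a zinc finger factor, the Nr4a proteins are orphan nuclear receptors, and Crem and Atf3 are relatives of CREB that can repress the same elements. In the heart these genes are also known to respond to stretch, to adrenergic stimulation, to lack of oxygen and to handling of the tissue, through serum response factor and MAP kinases as well as CREB.

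The promoters are shown first because the CRE is the element that ties these genes to cAMP. RefSeq windows of 300 bases, from 250 before the transcription start to 50 from it, were matched for 8 of the 10 genes, in the build GRCm38.p6. The full element TGACGTCA, whose letters read the same on both strands, was in none of the 8 windows, against 1.79% of the 32851 windows of all genes. Its core TGACG, searched on both strands so that it also counts CGTCA and lies on both strands of any full element, was in 7 of the 8, against 20.8% of all windows. Nr4a1, Nr4a2 and Nr4a3 each held at least 4 cores, as 0.231% of all windows did. The AP-1 site TGANTCA, where N is any base, was in 0 of the 8 windows and in 7.81% of all windows, and the CArG box of serum response factor was in 0 of the 8 and in 1.63% of all. A match is a run of letters and not a bound site. The genes were chosen as responsive to CREB and the windows of all genes were not matched for base content, so these shares are a description. Elements outside the windows were not searched, and 8 windows are too few to read a count of 0 as a shortage. Inexact matches, such as tgacatca in the sequence printed for Jun, were not searched either. The 250 bases before the start are printed 5′ to 3′ on the strand of the gene for Fos, Nr4a1 and Nr4a3, which had the largest fold changes, for Nr4a2, which held as many cores as its 2 relatives, and for Jun, which held none; capitals mark TGACG or CGTCA. They lie at chr12:85473640-85473889 on the plus strand (Fos), chr15:101266596-101266845 on the plus strand (Nr4a1), chr4:48045055-48045304 on the plus strand (Nr4a3), chr2:57124004-57124253 on the minus strand (Nr4a2) and chr4:95052223-95052472 on the minus strand (Jun).
Fos: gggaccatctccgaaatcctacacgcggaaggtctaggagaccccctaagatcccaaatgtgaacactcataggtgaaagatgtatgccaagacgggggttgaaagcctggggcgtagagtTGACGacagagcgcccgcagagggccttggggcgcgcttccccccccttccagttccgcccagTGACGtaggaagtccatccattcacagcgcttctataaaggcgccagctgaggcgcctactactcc
Nr4a1: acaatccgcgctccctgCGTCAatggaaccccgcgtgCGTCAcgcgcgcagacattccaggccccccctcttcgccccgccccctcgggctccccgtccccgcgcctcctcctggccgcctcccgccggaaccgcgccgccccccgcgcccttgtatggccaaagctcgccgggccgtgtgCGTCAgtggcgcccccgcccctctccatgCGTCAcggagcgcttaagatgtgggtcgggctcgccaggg
Nr4a3: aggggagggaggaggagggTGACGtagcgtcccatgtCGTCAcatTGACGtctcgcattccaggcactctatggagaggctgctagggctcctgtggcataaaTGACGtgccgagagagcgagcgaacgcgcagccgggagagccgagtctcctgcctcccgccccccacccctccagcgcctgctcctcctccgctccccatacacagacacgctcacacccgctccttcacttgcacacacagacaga
Nr4a2: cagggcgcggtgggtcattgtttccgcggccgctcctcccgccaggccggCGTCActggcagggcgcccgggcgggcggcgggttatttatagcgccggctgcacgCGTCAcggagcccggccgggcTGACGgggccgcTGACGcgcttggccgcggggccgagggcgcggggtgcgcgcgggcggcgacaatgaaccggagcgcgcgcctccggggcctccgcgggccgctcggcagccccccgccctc
Jun: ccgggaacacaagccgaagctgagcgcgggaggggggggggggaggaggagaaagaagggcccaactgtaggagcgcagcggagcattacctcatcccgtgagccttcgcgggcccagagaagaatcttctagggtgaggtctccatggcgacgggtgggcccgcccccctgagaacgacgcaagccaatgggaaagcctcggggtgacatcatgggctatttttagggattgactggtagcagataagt
In Fos the cores began 129 and 66 bases before the start. In Nr4a1 they began at 233, 213, 69 and 40 bases before it. The cores of Nr4a3 began 231, 213, 205 and 147 bases before the start, and those of Nr4a2 at 200, 144, 123 and 111 bases. Fosb, Junb and Atf3 held 1 core each, beginning 60, 106 and 7 bases before the start. For Nr4a1, Nr4a3, Fosb and Atf3 the start used by RefSeq lies inside the longer span that GENCODE gives the gene, so part or all of these windows is within that span.

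**Figure D1:**
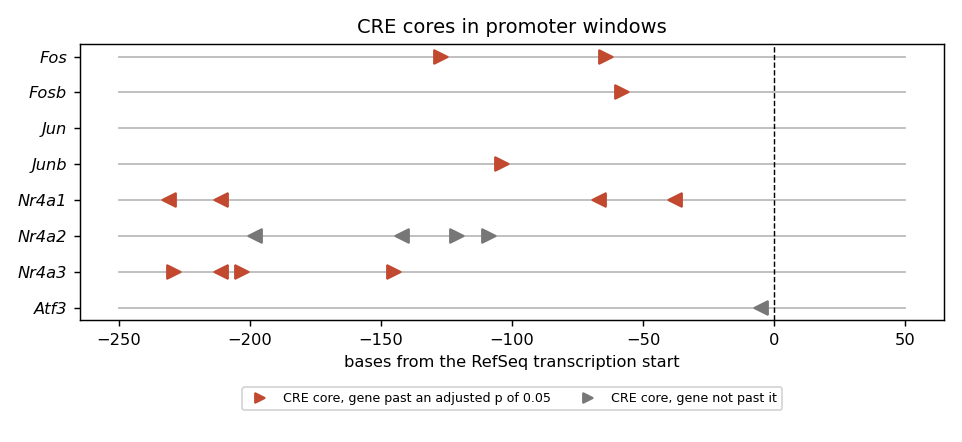
Positions of the CRE core in the promoter windows of 8 immediate early genes, in bases from the RefSeq transcription start (dashed line); each grey line is a window and each arrowhead a core pointing along the strand that reads TGACG. Nr4a1, Nr4a2 and Nr4a3 carry 4 cores each and Jun carries none, and red marks genes whose RNA passed an adjusted p of 0.05 between the genotypes.

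Total counts on genes ran from 35865537 to 42835382 over the 11 libraries, and all of the 10 genes but Fosb and Nr4a3 rested on over 100 counts in each heart. The targeted gene, counted by a single identifier, had between 0 and 2 counts in each library, so it gave no check of the genotype labels. This held in Pde2A+/+ hearts too, and reads shared between genes are not counted. The low counts thus do not show that its RNA is absent, and their cause was not tested. Cardiomyocyte markers summed to between 36877 and 43546 CPM (counts scaled to a common library size, with TMM normalization) in Pde2A-/- and between 35969 and 47824 CPM in Pde2A+/+ hearts. Summed markers of liver, or of lung and thymus, were above 20 CPM in 5 hearts, Pde2A-/- heart D and Pde2A+/+ hearts 7, 11, H and E. Results are also given without these 5 hearts. Litters and batches are not stated for the hearts.

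Of the 10 genes, 5 were higher in Pde2A-/- hearts and none was lower at an adjusted p under 0.05 (edgeR's quasi-likelihood test, Benjamini-Hochberg over all genes tested). Over all genes tested, 8.93% passed as higher and 5.67% as lower. At an unadjusted threshold of 0.05 the counts were 6 higher and 1 lower, Nr4a2. The share of all genes at that threshold is not given, here or below, so unadjusted counts are only a description. DESeq2 gave 6 higher and 0 lower after adjustment, where 11.5% of all genes passed as higher. Nr4a3 rose 3.33-fold, Fos 2.91-fold, Nr4a1 2.21-fold, Fosb 1.85-fold and Junb 1.75-fold, while Egr1, Jun, Nr4a2, Crem and Atf3 did not pass. With a fold change of at least 2 required as well, 3 of the 10 were called, all higher, where 2.21% of all genes were called higher and 0.372% lower. Fos was the 1 gene of the 10 whose genotypes did not overlap, with every Pde2A-/- heart above every Pde2A+/+ heart, as for 5.38% of all genes, and the opposite order, found for 3.11% of all genes, was shown by none of the 10. The median log2 fold change of the 10 genes was 0.73, beside -0.02 over all genes tested. In RNA of whole hearts, a change in the number of cells that express a gene and a change in the RNA per cell cannot be told apart.

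**Figure D2:**
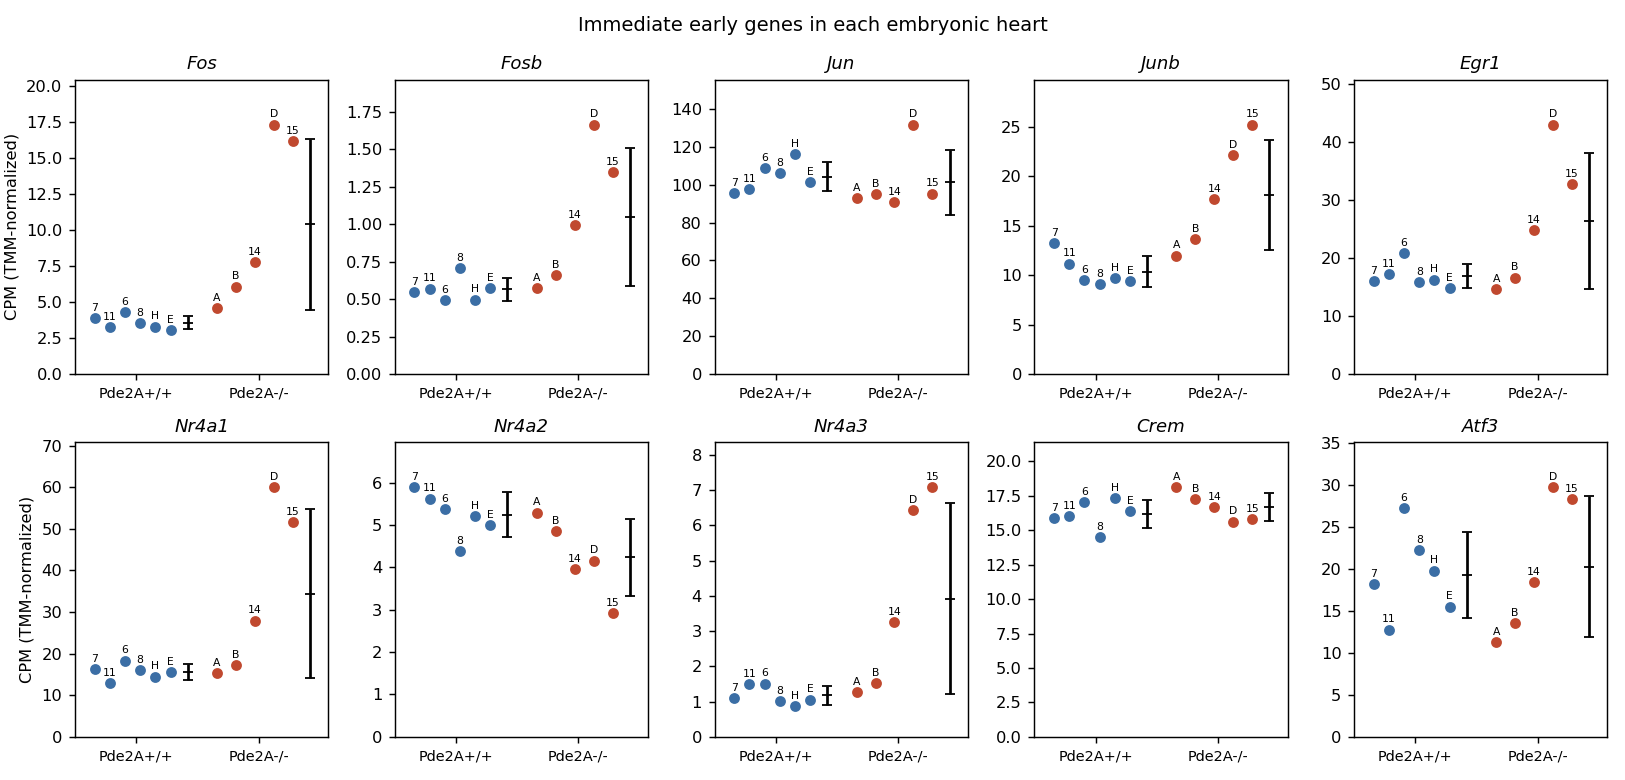
TMM-normalized CPM of the 10 genes in each heart, with the replicate name beside each point, Pde2A+/+ in blue and Pde2A-/- in red; black bars are the mean and SD of 6 and of 5 hearts, and each vertical axis starts at 0. In the panels of Fos, Nr4a1 and Nr4a3, Pde2A-/- hearts D and 15 lie far above all others, while hearts A and B lie near the Pde2A+/+ hearts.

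Fos (ENSMUSG00000021250, chromosome 12, 85473890 to 85477273, GRCm38), the AP-1 subunit whose induction is the usual sign of a cell that has just been stimulated, separated the genotypes most clearly. Pde2A-/- hearts A, B, 14, 15 and D had 4.59, 6.09, 7.79, 16.2 and 17.3 CPM. The Pde2A+/+ hearts ranged from 3.05 to 4.30 CPM with a median of 3.43. The lowest Pde2A-/- heart was thus just above the highest Pde2A+/+ heart, and hearts 15 and D were 4.54 and 4.86 times the Pde2A+/+ mean. Means were 10.4 ± 5.94 CPM (SD, n = 5) and 3.57 ± 0.463 CPM (SD, n = 6), and the log2 fold change was 1.54 with a standard error of 0.30 and an adjusted p of 0.0062 by edgeR. Fosb (ENSMUSG00000003545, chromosome 7, 19302696 to 19310051), a second partner of the Jun proteins, was the least abundant of the 10, with 18 to 60 counts per heart. It was at 0.574, 0.661, 0.995, 1.35 and 1.67 CPM in the same order of Pde2A-/- hearts, against 0.493 to 0.705 CPM with a median of 0.559 in Pde2A+/+ hearts. Its Pde2A-/- hearts 14, 15 and D were above all Pde2A+/+ hearts and hearts A and B were within their range. The log2 fold change of Fosb was 0.88 ± 0.26 (SE), with an adjusted p of 0.041 by edgeR.

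Jun and Junb, the partners of the Fos proteins, parted from each other. Junb (ENSMUSG00000052837, chromosome 8, 84974484 to 84978718) was at 12.0, 13.6, 17.7, 25.2 and 22.1 CPM in Pde2A-/- hearts A, B, 14, 15 and D, and between 9.09 and 13.2 CPM with a median of 9.60 in Pde2A+/+ hearts. All Pde2A-/- hearts but A were above the highest Pde2A+/+ heart, which was heart 7. Its log2 fold change was 0.81 ± 0.18 (SE), with an adjusted p of 0.011 by edgeR. Jun (ENSMUSG00000052684, chromosome 4, 95049034 to 95052222), which combines with every Fos protein, was at 92.7, 95.1, 90.9 and 95.2 CPM in Pde2A-/- hearts A, B, 14 and 15 and at 131.7 CPM in heart D. In Pde2A+/+ hearts it ranged from 95.5 to 116 CPM with a median of 103.7. Heart D was the highest of the 11 hearts and the other 4 Pde2A-/- hearts were below the lowest Pde2A+/+ heart, so the groups overlapped through 1 heart. The log2 fold change of Jun was -0.04, with a 95% interval from -0.24 to 0.16 and an adjusted p of 0.81 by edgeR; without heart D it was -0.15. Genes on the opposite strand share 7.28% of the exon bases of Jun, 7.52% of those of Junb and 8.01% of those of Crem. The counts used were those of the gene's own strand.

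Egr1 (ENSMUSG00000038418, chromosome 18, 34859823 to 34864984), a growth factor and stretch responsive zinc finger factor, followed the order of Fos without passing the test. Its Pde2A-/- hearts A, B, 14, 15 and D were at 14.7, 16.6, 24.8, 32.7 and 42.9 CPM, and its Pde2A+/+ hearts between 14.8 and 20.8 CPM with a median of 16.2. Hearts 14, 15 and D were above all Pde2A+/+ hearts, heart B was within their range and heart A was just below it. Its log2 fold change was 0.65 ± 0.23 (SE), with a 95% interval for the single gene from 0.15 to 1.14 and an adjusted p of 0.074 by edgeR. With DESeq2 on the same counts Egr1 passed, at an adjusted p of 0.022, as it did when heart A or heart B was left out.

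The Nr4a genes encode orphan nuclear receptors that bind DNA without a known hormone and are among the most cAMP-responsive genes of many tissues. Nr4a1 (ENSMUSG00000023034, chromosome 15, 101254269 to 101274795) was at 15.2, 17.2, 27.9, 51.6 and 59.95 CPM in Pde2A-/- hearts A, B, 14, 15 and D. The range in Pde2A+/+ hearts was 12.8 to 18.3 CPM and the median 15.8. Hearts A and B were within the Pde2A+/+ range, and hearts 15 and D were 3.32 and 3.85 times the Pde2A+/+ mean. Nr4a1 had means of 34.4 ± 20.3 CPM (SD, n = 5) and 15.6 ± 1.84 CPM (SD, n = 6) and a log2 fold change of 1.14 ± 0.31 (SE), with an adjusted p of 0.027 by edgeR. Nr4a3 (ENSMUSG00000028341, chromosome 4, 48045153 to 48086447) gave the largest fold change of the 10 genes at a lower level, with 35 to 257 counts per heart. Pde2A-/- hearts A, B, 14, 15 and D had 1.28, 1.53, 3.26, 7.08 and 6.44 CPM, and Pde2A+/+ hearts 0.870 to 1.51 CPM with a median of 1.08. Heart A was within the Pde2A+/+ range, heart B just above it, and heart 15 reached 6.03 times the Pde2A+/+ mean. The log2 fold change of Nr4a3 was 1.74 ± 0.41 (SE), with an adjusted p of 0.015 by edgeR.

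Nr4a2 (ENSMUSG00000026826, chromosome 2, 57106830 to 57124003) did not move with its relatives. It was at 5.30, 4.86, 3.96, 2.92 and 4.16 CPM in Pde2A-/- hearts A, B, 14, 15 and D and between 4.39 and 5.89 CPM with a median of 5.29 in Pde2A+/+ hearts. Hearts 14, 15 and D, the highest for Nr4a1 and Nr4a3, were here below every Pde2A+/+ heart. Nr4a2 had a log2 fold change of -0.31 ± 0.14 (SE), with a 95% interval for the single gene from -0.61 to -0.0015 and an adjusted p of 0.16 by edgeR. The 3 relatives thus had 2 higher members and 1 that passed in neither direction, though the promoter windows printed above hold 4 cores in each.

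Crem and Atf3 belong to the CREB and ATF family. The Crem gene (ENSMUSG00000063889, chromosome 18, 3266048 to 3337748) makes activators and, from an internal promoter, the inducible repressor ICER, and a count over the whole gene with its 39 annotated transcripts does not separate them. Crem was at 18.1, 17.3, 16.7, 15.8 and 15.6 CPM in Pde2A-/- hearts A, B, 14, 15 and D, against 14.5 to 17.3 CPM with a median of 16.2 in Pde2A+/+ hearts. The groups overlapped almost wholly, and the 95% interval of the log2 fold change of 0.05 ran from -0.09 to 0.18, with an adjusted p of 0.68 by edgeR. Atf3 (ENSMUSG00000026628, chromosome 1, 191170296 to 191218039), a stress-induced factor that acts mainly as a repressor, was at 11.2, 13.5, 18.4, 28.3 and 29.7 CPM in Pde2A-/- hearts A, B, 14, 15 and D. In Pde2A+/+ hearts Atf3 ranged from 12.7 to 27.2 CPM with a median of 19.0. Hearts 15 and D were the highest of all and heart A the lowest of all, so the Pde2A-/- hearts spanned the Pde2A+/+ range on both sides. The log2 fold change of Atf3 was 0.07 ± 0.25 (SE), with a 95% interval from -0.48 to 0.61 and an adjusted p of 0.89 by edgeR.

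**Figure D3:**
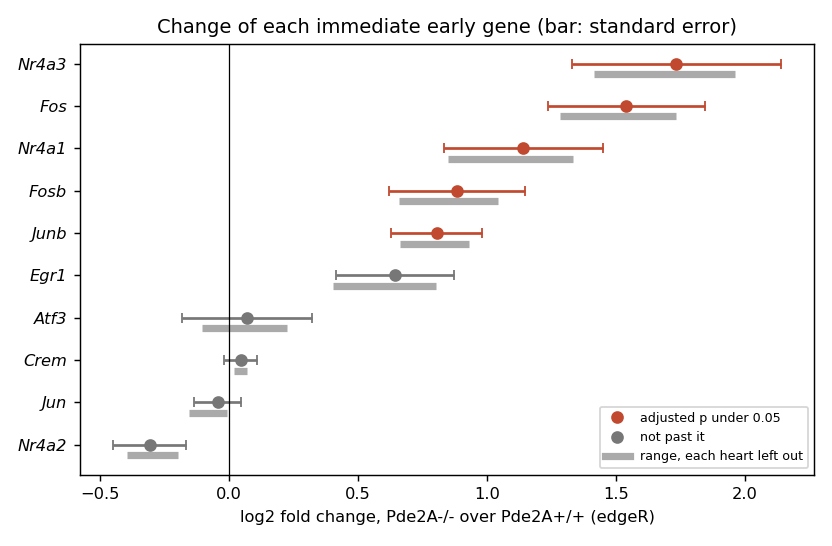
Log2 fold change of Pde2A-/- over Pde2A+/+ hearts for the 10 genes by edgeR, with standard errors; red points passed an adjusted p of 0.05, grey points did not, and grey bars span the 11 values that omitting 1 heart gives. Nr4a3, Fos, Nr4a1, Fosb and Junb lie above 0 with every heart left out, as do Egr1 and Crem, which did not pass. Jun and Nr4a2 lie below 0 throughout, and the bar of Atf3 crosses 0.

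To compare levels between genes, mean CPM was divided by the exon length of each gene. In Pde2A+/+ hearts Jun was the most abundant of the 10 at 32.7 ± 2.40 CPM per kb (SD, n = 6), followed by Atf3 at 8.94, Junb at 4.50, Nr4a1 at 4.43, Egr1 at 3.75, Crem at 2.74, Fos at 1.52, Nr4a2 at 1.29, Nr4a3 at 0.196 and Fosb at 0.0905 CPM per kb. In this order Junb and Nr4a1, Nr4a1 and Egr1, and Fos and Nr4a2 were neighbours whose Pde2A+/+ hearts overlapped, and the other neighbours did not overlap. In Pde2A-/- hearts Nr4a1, at 9.80 ± 5.796 CPM per kb (SD, n = 5), had the second highest mean after Jun, but its hearts, from 4.34 to 17.1, spanned those of Atf3, from 5.22 to 13.8 with a mean of 9.39 ± 3.90. Fos, at 4.42 ± 2.52, had a higher mean than Crem, at 2.83 ± 0.175, and its hearts likewise spanned those of Crem, so neither pair can be ordered beyond the spread of the hearts. The lowest places were held by Nr4a3 and Fosb in both genotypes, so the gene with the largest fold change was among the least abundant.

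The Pde2A-/- hearts differed from each other more than the Pde2A+/+ hearts did. On the log2 scale the SD over Pde2A-/- hearts was 5.21 times that over Pde2A+/+ hearts for Nr4a1, 4.71 times for Fos, 3.89 times for Egr1, 3.67 times for Nr4a3 and 3.58 times for Fosb. It was between 1.62 and 2.22 times for Junb, Jun, Nr4a2 and Atf3 and 0.964 times for Crem, beside a median of 1.24 over all genes tested that averaged 1 CPM or more. These ratios are a description, and no test of spread was made. Hearts D and 15 were the highest of the Pde2A-/- hearts for 8 of the 10 genes, an order held by 18.0% of all genes tested, and for 7 of those, all but Jun, hearts A and B were also the lowest, as for 11.1% of all genes tested. Nr4a2 and Crem ran the other way, with hearts A and B the highest. Relative to the Pde2A+/+ mean, the mean log2 value of the 10 genes was -0.02 in heart A, 0.13 in heart B, 0.50 in heart 14, 0.95 in heart 15 and 1.12 in heart D. The 10 genes of hearts A and B were thus on average within or near the Pde2A+/+ hearts, which ran from -0.09 to 0.16.

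**Figure D4:**
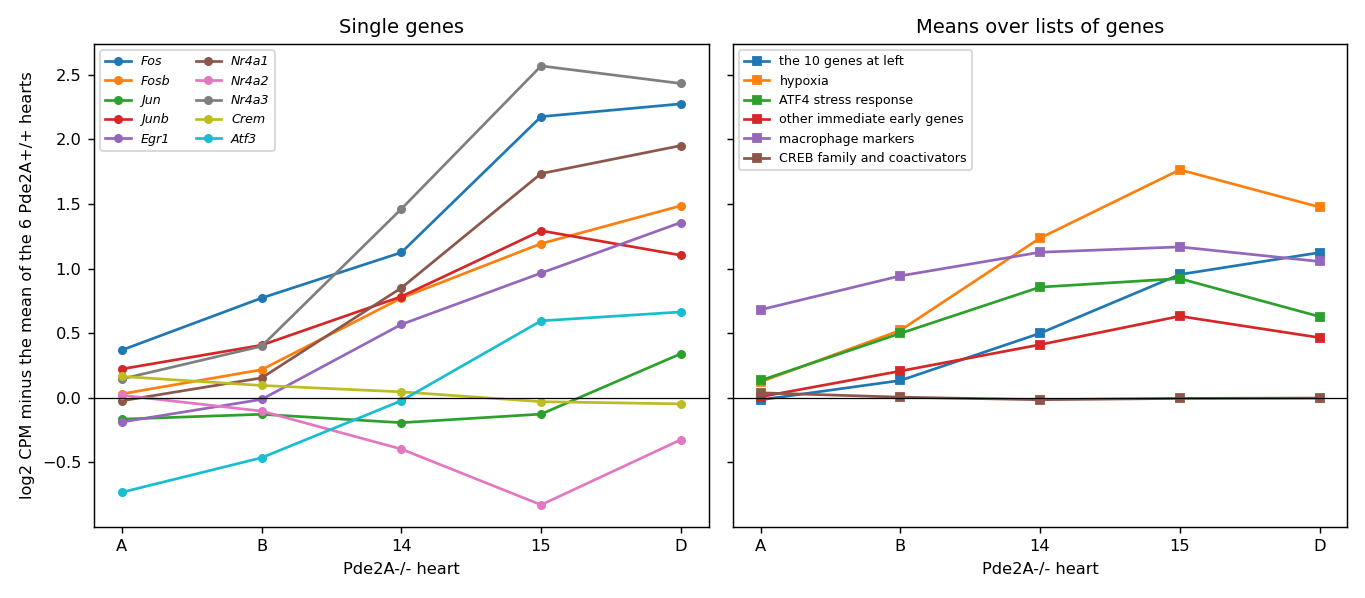
Log2 CPM of each Pde2A-/- heart minus the mean of the 6 Pde2A+/+ hearts, for each of the 10 genes (left) and as means over lists of genes (right); hearts are placed in order of the mean of the 10 genes, and lines only join the points of 1 gene or list. The mean of the 10 genes goes from -0.02 in heart A to 1.12 in heart D, hypoxia-induced genes from 0.12 to 1.76 in heart 15, and genes of the CREB family stay near 0.

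Leaving out 1 heart at a time, Fos, Junb and Nr4a3 passed in all 11 fits, with adjusted p by edgeR of at most 0.020, 0.038 and 0.049. Nr4a1 passed in 7 of the 11 and reached an adjusted p of 0.085 in the others, which were those without Pde2A-/- heart D or 15 or without Pde2A+/+ heart 8 or H. Fosb passed in 2, those without Pde2A-/- heart A or B, and reached 0.12. Without hearts D and 15 together, a setting chosen after the values had been seen, 1 of the 10 genes passed by edgeR. That gene was Fos, at a log2 fold change of 0.79 and an adjusted p of 0.025. In that fit Nr4a3 was at 0.79, Junb at 0.48, Fosb at 0.39, Nr4a1 at 0.37 and Atf3 at -0.42, with 900 of the genes tested passing. Without the 5 hearts that held liver or lung and thymus markers, 4 Pde2A-/- and 2 Pde2A+/+ hearts were left. There 0 of the 10 genes passed by edgeR, with 382 genes passing in all. At an unadjusted threshold of 0.05, with no share of all genes given, 2 of the 10 were higher and 1 was lower. The log2 fold changes were then 1.39 for Nr4a3, 1.15 for Fos, 0.89 for Junb and 0.72 for Nr4a1.

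The replicates are named by a letter in some hearts and by a number in others, and the labels do not say what the styles mark. Among the hearts named by a letter, 3 Pde2A-/- and 2 Pde2A+/+, 0 of the 10 genes passed by edgeR and 100 genes passed in all. At an unadjusted threshold of 0.05, with no share of all genes given, 2 of the 10 were higher there. Among the hearts named by a number, 2 Pde2A-/- and 4 Pde2A+/+, 6 of the 10 passed. In all 4124 genes passed in those hearts, with 10.4% of the genes tested there as higher. In the letter-named and the number-named hearts the log2 fold change was 1.55 and 1.67 for Fos, 1.67 and 2.01 for Nr4a3, 1.04 and 1.33 for Nr4a1, and 0.74 and 0.99 for Junb. It was -0.10 and -0.63 for Nr4a2 and 0.04 and 0.22 for Atf3. The difference between the subsets was not tested. With the naming style as a covariate over all 11 hearts, 5 of the 10 genes passed, and Fos was at 1.62 with an adjusted p of 0.0064 by edgeR.

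The other immediate early genes, a list of 30 of which 29 were tested, had 12 members higher and 1 lower in Pde2A-/- hearts, with a median log2 fold change of 0.37. Maff, a small Maf protein, had a log2 fold change of 1.501 (adjusted p 0.0074), Ptgs2, the inducible cyclooxygenase, of 1.49 (0.020), Ier3 of 1.38 (0.014) and Nfkbiz, an atypical IkB protein, of 1.36 (0.0040). The 1 lower gene was Ier5, at -0.27 with an adjusted p of 0.016 by edgeR. Summed over the list, Pde2A-/- hearts ran from 1012 to 1614 CPM and Pde2A+/+ hearts from 953 to 1169 CPM. Among 11 other AP-1 subunits and partners, 5 were higher and none lower: Fosl2, the Fos relative known from differentiating tissues, at a log2 fold change of 1.10 (0.0044), Batf at 0.60 (0.033), Mafg at 0.52 (0.00077), Mafk at 0.48 (0.012) and Atf7 at 0.37 (0.026). Without hearts D and 15, 4 and 2 genes of these lists passed as higher.

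Upstream of the 10 genes, the factors themselves hardly passed the test, and some of the kinases did. Of the 9 genes of the CREB family and its coactivators, 0 were higher and 1 was lower, Crtc1, a cAMP-regulated coactivator, at a log2 fold change of -0.23 with an adjusted p of 0.049 by edgeR. Their summed level was 727 to 748 CPM in Pde2A-/- and 709 to 754 CPM in Pde2A+/+ hearts, and Creb1 itself was at 85.2 ± 2.51 CPM (SD, n = 5) and 81.6 ± 4.77 CPM (SD, n = 6). With DESeq2 and at an unadjusted threshold of 0.05 by edgeR the counts were again 0 higher and 1 lower, but the count lower fell to 0 in 14 of the 21 alternative settings, among them no filter, the naming style as a covariate and leaving out any Pde2A+/+ heart or Pde2A-/- heart 14, D or 15. RNA levels do not show phosphorylation, on which CREB activity depends. Of 11 genes for CREB kinases and the SIK kinases that hold back the coactivators, 4 were higher and 0 lower by edgeR, with 3 lower at an unadjusted threshold of 0.05 and 1 lower by DESeq2. Sik1, itself a CREB target, had a log2 fold change of 0.89 (0.0097), Sik3 of 0.48 (0.0070), Rps6ka2 of 0.40 (0.00077) and Rps6ka1 of 0.31 (0.0015). Sik1 and Sik3 are among those that hold back the coactivators. The genes of the catalytic subunits of protein kinase A did not pass, Prkaca at -0.15 (0.087) and Prkacb at 0.02 (0.81) by edgeR. Of the 6 genes of serum response factor and its partners, the other main route to Fos and Egr1, 0 were higher and 1 was lower, Mrtfa at -0.26 with an adjusted p of 0.016 by edgeR, and the counts were the same without adjustment and by DESeq2.

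Further genes known to respond to cAMP, 16 in number, had 7 higher and 1 lower, with a median log2 fold change of 0.43. Scg2, a neuroendocrine secretory protein at under 1 CPM on average in both genotypes, was at 1.54 (adjusted p 0.0095), the small GTPase gene Gem at 0.97 (0.0083), the insulin signalling adaptor Irs2 at 0.79 (0.0046) and the cAMP phosphodiesterase Pde4b at 0.62 (0.0018) by edgeR. Inhba, an activin subunit, was the lower one at -0.53 (0.011). Without hearts D and 15, 4 of the 16 passed as higher and 0 as lower by edgeR.

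**Figure D5:**
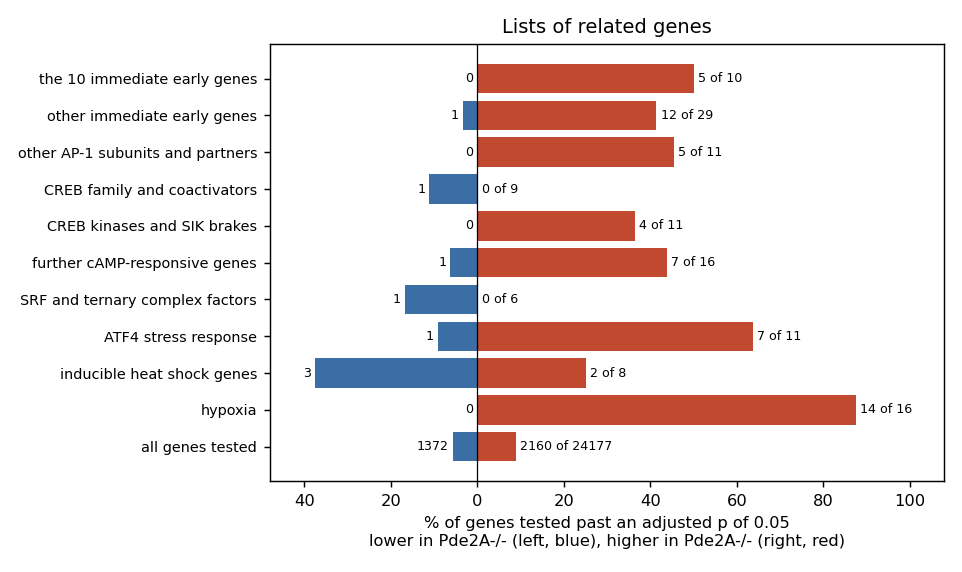
Share of the tested genes of each list that passed an adjusted p of 0.05 by edgeR, higher in Pde2A-/- to the right in red and lower to the left in blue, with the numbers of genes beside the bars. The 10 genes had 5 higher and 0 lower, the CREB family 0 higher and 1 lower, and hypoxia-induced genes 14 of 16 higher, beside 2160 higher and 1372 lower of all 24177 genes.

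Hypoxia-induced genes and targets of the stress factor ATF4 moved with the 10 genes, while inducible heat shock genes went both ways. The part of these groups in the result was not tested. Hypoxia-induced genes were higher for 14 of 16 and lower for 0 (all 16 higher by DESeq2 and without adjustment), with a median log2 fold change of 1.15 and summed levels of 1543 to 4403 CPM in Pde2A-/- against 1397 to 1547 CPM in Pde2A+/+ hearts. The 4 largest changes among them were those of Ndrg1 at 2.31 (adjusted p 0.0062), Egln3 at 1.98 (0.0032), Adm at 1.59 (0.013) and Vegfa at 1.39 (0.0040) by edgeR. Without hearts D and 15, 3 of the 16 passed as higher by edgeR. Relative to the Pde2A+/+ mean, their mean log2 value was 0.12 in heart A, 0.52 in heart B, 1.24 in heart 14, 1.76 in heart 15 and 1.48 in heart D. Hearts A and B were thus the lowest Pde2A-/- hearts for these genes as for Fos and Nr4a1. The same held for the means of the other immediate early genes, ATF4 targets, macrophage markers and markers of fibroblasts and epicardium, so it is not particular to hypoxia. Targets of the stress factor ATF4 were higher for 7 of 11 and lower for 1, Atf5 at -0.29 (0.030), with Chac1 at 1.60 (0.017), Trib3 at 1.496 (0.0048), Ddit3 at 0.96 (0.015) and Ppp1r15a at 0.92 (1.6e-05), and their mean was 0.13, 0.50, 0.86, 0.92 and 0.63 in hearts A, B, 14, 15 and D; without hearts D and 15, 2 of the 11 passed as higher. Of the 8 inducible heat shock genes, often raised by handling, 2 were higher, Hspa1a at 1.67 (0.017) and Hspa1b at 1.41 (0.021), and 3 were lower, Hsph1 at -0.35 (0.041), Hspa8 at -0.34 (0.039) and Hspb1 at -0.29 (0.014). With 1 heart left out the count higher fell to 1, without Pde2A-/- heart D or 15, and the count lower to 1, without Pde2A-/- heart 14, D or 15 or Pde2A+/+ heart 11, 6 or 8. Without hearts D and 15 together 0 heat shock genes passed by edgeR, with 2 higher and 3 lower at an unadjusted threshold of 0.05. Hspa1a and Hspa1b are near-identical copies, so the division of their reads is uncertain.

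Markers of other cell types also differed between the genotypes. Macrophage markers were higher for 11 of 12, at a sum of 277 to 380 CPM in Pde2A-/- against 134 to 219 CPM in Pde2A+/+ hearts, with no marker at 0 in any heart. Erythroid markers were higher for 8 of the 9 tested, at 517 to 1045 CPM against 125 to 519 CPM, again with none at 0. Without Pde2A-/- hearts D and 15, 10 of the macrophage and 8 of the erythroid markers passed as higher by edgeR. Those hearts were the highest Pde2A-/- hearts for 8 of the 10 genes and were left out after these values were seen. The counts of markers and of the 10 genes in this setting therefore cannot be compared. Relative to the Pde2A+/+ mean, the mean log2 value of macrophage markers was 0.68, 0.94, 1.13, 1.17 and 1.05 in hearts A, B, 14, 15 and D. Erythroid markers were at 2.51, 3.52, 3.21, 3.21 and 3.05 in the same order. Markers of fibroblasts and epicardium were at -0.03, 0.04, 0.32, 0.40 and 0.49, an order of hearts shared with the mean of the 10 genes. That mean was -0.02 in heart A and 1.12 in heart D. Endothelial markers had 3 of 10 higher and 1 lower, markers of fibroblasts and epicardium 3 of 10 higher and 0 lower, cardiomyocyte markers 1 of 12 higher and 3 lower, and neuronal, liver, and lung and thymus markers 0 passing by edgeR in either direction. What these cells contributed to the RNA of the 10 genes was not tested.

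The pattern over the 11 hearts was also compared between genes, by the root mean square difference of log2 CPM after centring each gene on its mean, where a small value means a similar profile in shape and size. Among 13051 protein-coding genes that averaged 1 CPM or more and are not among the 10, the nearest to the mean profile of the 10 were Nr1d1, a clock repressor, at 0.119, the kinase gene Pim3 at 0.122, Hs1bp3 at 0.122, the autophagy gene Gabarapl1 at 0.125, the secreted phospholipase gene Pla2g12a at 0.129 and Cmtm8 at 0.129, where the median over the candidates was 0.436. Within the 10, Fos and Nr4a1 were each other's nearest, at 0.235, Fosb and Egr1 likewise at 0.224, and Jun and Crem at 0.193. Junb was nearest to Fosb, Nr4a3 to Fos, Nr4a2 to Crem and Atf3 to Egr1. Neither Jun nor Crem passed the test between the genotypes.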

How the data were processed

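Poly(A) RNA of 11 embryonic hearts was sequenced as stranded single-end libraries on an Illumina instrument. STAR was run against GRCm38 by the authors, who deposited its counts per gene, whole numbers without normalization, for both strands together, for the gene's strand and for the opposite one; the version of STAR and the annotation release are not given in the sources used here. Reads on more than 1 gene are not counted. The column with the larger total, the gene's strand, was used. GENCODE M21 named 55227 of the 55487 gene identifiers and gave positions and exon lengths. Reads on no single gene, 19.6% to 22.4% of a library, were left out of the library sizes.

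Genes whose counts summed to 10 or more over all hearts were normalized by TMM and compared by the quasi-likelihood test of edgeR 4.0.16 (R 4.3.3), with no covariate and Benjamini-Hochberg adjustment over all genes tested, at a threshold of 0.05. The standard error is the log2 fold change divided by the root of the test statistic, and the 95% intervals are for single genes. Log2 CPM used a prior count of 2. The common biological coefficient of variation was 16.8%. Each heart is 1 embryo, and whether embryos shared a litter is not stated.

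The 10 genes and the lists of related genes and markers were chosen with earlier results of these data known. All 10 genes are named, and of each list of related genes up to 4 passing genes with the largest fold changes. Atf7, Creb1, Prkaca, Prkacb, Ier5, Inhba, Atf5 and the lower heat shock genes were added after their values were seen. Marker lists are given by counts and sums, and the 6 nearest genes by profile are named. Values in parentheses after a log2 fold change are adjusted p-values by edgeR. Promoters were taken from RefSeq (GRCm38.p6) and searched for exact motifs; Egr1 and Crem were not matched there.

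Alternatives were DESeq2 1.42.0, its size factors, filterByExpr, no filter, both strands, the naming style of the replicates as a covariate, and each heart left out. Subsets by naming style, without Pde2A-/- hearts D and 15, and without hearts holding markers of liver or of lung and thymus were added after seeing the data. Plots used Python 3.11.15 and matplotlib 3.10.9.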

Additional observations from a re-analysis of the deposited data

Results flagged for a closer look

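Jun in the Pde2A-/- hearts had 1 heart far from the others: heart D was at 131.7 CPM and the other 4 between 90.9 and 95.2 CPM. The log2 gap to the nearest of them was 0.876 of the group's whole log2 range, above the limit of 0.71 for 5 samples. It was the 1 group with such a heart among the 20 groups examined, 10 genes in each genotype, and chance gives such a heart in about 1 of 20. Heart D was also the highest Pde2A-/- heart for Fos, Fosb, Egr1, Nr4a1 and Atf3, and its liver markers summed to 44.2 CPM, against 4.74 to 7.49 CPM in the other Pde2A-/- hearts. Their part in the value of Jun was not tested.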

How the results depend on the processing

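The count of the 10 genes higher in Pde2A-/- hearts was 5 and ranged from 3 to 6 with each heart left out; it was 3 without Pde2A-/- heart D or 15 or without Pde2A+/+ heart 8 or H. The count lower stayed at 0. The count called at a fold change of at least 2 ranged from 2 to 4 around 3. The count whose genotypes do not overlap ranged from 1 to 3 around 1. It was 3 without Pde2A-/- heart A, where 14.7% of all genes did not overlap in either direction. It was 2 without heart D or without Pde2A+/+ heart 7, where the shares were 9.295% and 10.1%, beside 8.49% with all hearts. Of all genes, 12.1% were higher without Pde2A-/- heart A and 5.78% without heart 15, beside 8.93% with all hearts. Those called in either direction were 2.82% without heart B and 1.89% without heart D, beside 2.59%. The shares of all genes thus also moved with the heart left out. DESeq2 gave 6 higher, beside 11.5% of all genes. Its size factors, filterByExpr, no filter, both strands and the naming style as a covariate gave 5 each, beside 6.15% to 13.8% of all genes. Of the settings added after seeing the data, the hearts named by a letter gave 0 higher, 0 called and 3 without overlap. There 0.401% of all genes were higher, 0.387% called and 32.3% without overlap in either direction. Hearts named by a number gave 6 higher, 4 called and 8 without overlap, where the shares of all genes were 10.4%, 3.64% and 43.6%. Without hearts D and 15, 1 was higher, 0 were called and 2 did not overlap, beside 3.36%, 1.23% and 10.3% of all genes. Without the hearts that held liver or lung and thymus markers, 0 were higher, 0 were called and 3 did not overlap. The shares of all genes were 1.61%, 1.30% and 32.1%. With each heart left out the log2 fold change of Atf3 ran from -0.10 to 0.22. It reversed, from 0.07 to -0.10 without Pde2A-/- heart D, -0.076 without heart 15, -0.025 without Pde2A+/+ heart 11, -0.42 without hearts D and 15 together and -0.46 without the hearts with other tissue markers, and passed in none of these. The other 9 genes kept their direction in all 21 settings. Fewer hearts are tested in these settings, and beyond that the cause was not tested. Of 714 recomputed counts over the lists, 605 stayed within 1.5 times. No paired analysis was possible because no replicate name is shared between the genotypes. Depth limits Fosb, with 18 to 60 counts per heart, and Nr4a3, with 35 to 257.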
